A study of Saccharomyces cerevisiae with 2 samples.

Results

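Ribosomes are built in the nucleolus, where RNA polymerase I transcribes a long precursor of the ribosomal RNAs and a large set of assembly factors modifies, cuts and folds it. Box C/D small nucleolar ribonucleoproteins place methyl groups on this precursor, the small-subunit processome cuts out the 18S rRNA, other particles mature the large subunit, and the RNA exosome trims and degrades the leftover pieces. In budding yeast the genes of these factors are known as a regulon that follows the growth rate and nutrient supply. The 12 genes described here are the rows of the expression table whose gene name is UTP, NOP, NOC, NSA or RRP followed by a number, out of 7126 rows in all. The table gives a name to 2265 of its rows only, and a further 46 genes carry such a name in RefSeq (assembly R64) but not in the table, which makes 58 in all. Those 46 were kept apart and serve as a comparison. The descriptions in the table use a word for the nucleolus, the ribosome or the processome for 11 of the 12 members. The exception is RRP40, an exosome subunit that works in both nucleus and cytoplasm.

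Both RNA-seq libraries come from the engineered carotenoid producer BL03-D-4. Other strains of the study are not part of this comparison. This strain derives from BY4742, lacks ALD6, carries crtB, crtI and crtE behind HSP26 promoters in place of GAL80, and expresses a truncated HMG-CoA reductase from the CIT1 promoter. All of this is shared by both libraries, and the strain is a single line. The RNA-seq comparison holds 1 library after 24 h in YPD, the medium that the paper calls YPD2, and 1 library after 24 h in YPM, a modified YPD with another yeast extract, added phosphate and sulfate salts and a trace metal solution. The paper places both cultures in stationary phase at this time, and it reports different growth curves in the media. The effects of the components and of the growth state cannot be told apart.

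Expression was given as TPM, in which reads are divided by transcript length and every library has the same nominal total. It keeps no depth, so no interval can be put on a value, and in RNA from a whole culture fewer expressing cells and less RNA per cell cannot be told apart. The listed values summed to 937091 in YPD2 and 925918 in YPM. Differences are log2 ratios, YPM over YPD2, with 1 TPM added on both sides. A row was compared if its mean reached 1 TPM, which held for 6350 rows and for all 12 members, and it was counted as lower or higher past a log2 ratio of 1. Because each medium has a single library, the differences are those between 2 libraries and carry no error and no p-value.

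The 12 members had a median log2 ratio of -0.62, against -0.13 for all rows compared. The sign sets them apart little, since 9 of the 12 (75%) were below 0, and so were 63.1% of all rows compared. Past the limit, 2 members were lower (16.7%) and none was higher, where 5.15% of all rows compared were lower and 3.28% were higher. Among the 2731 rows within the range of mean TPM that the members span, from 22.2 to 73.3, 2.86% were lower, 1.54% were higher, 65.1% were below 0 and the median was -0.14. Part of the members' difference was therefore shared by the table as a whole. If YPM is scaled so that the median row with at least 10 TPM shows no change, a shift of 0.14 on the log2 scale, the members' median becomes -0.49.

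**Figure D1:**
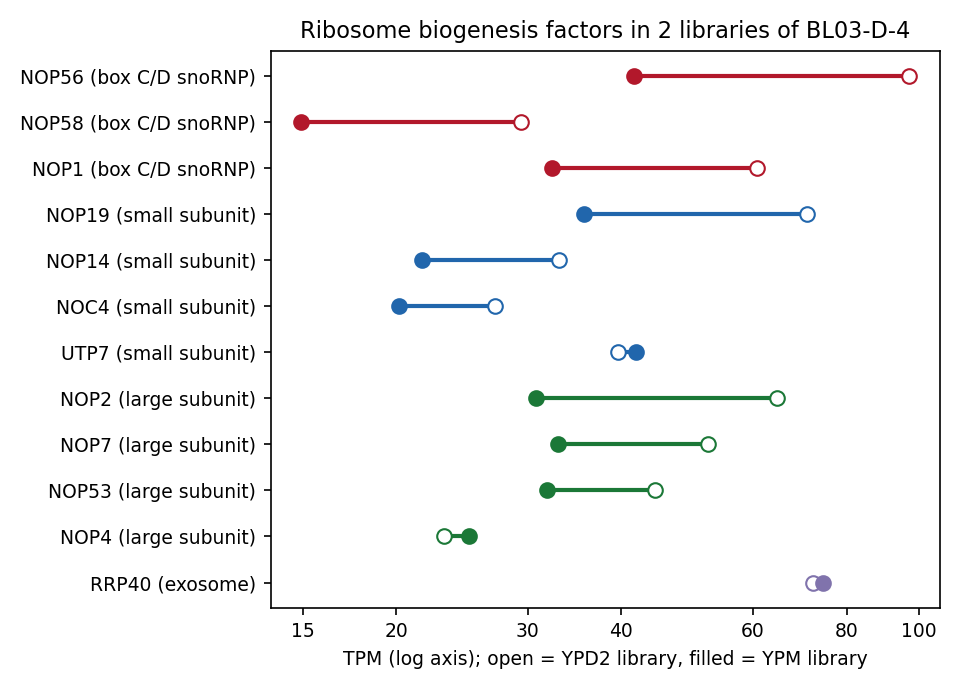
TPM of the 12 members on a log axis, with the YPD2 library as an open circle and the YPM library as a filled circle, coloured by role. In 9 members the filled circle lies to the left, most of all in NOP56 (97.05 to 41.55 TPM), and in RRP40, UTP7 and NOP4 both circles lie close together.

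The proteins of the box C/D ribonucleoproteins formed the lowest role group. All 3 members of this group were lower in YPM, with a median log2 ratio of -0.93. NOP56, which together with NOP58 forms the scaffold of these particles, was listed at 97.05 TPM in YPD2 against 41.55 TPM in YPM. This log2 ratio of -1.20 was the lowest of all members, and 221 of the 6350 rows were as low or lower. NOP58 went from 29.39 TPM to 14.93 TPM (log2 ratio -0.93). NOP1 encodes the yeast fibrillarin, the enzyme that transfers the methyl group, and stood at 60.67 TPM in YPD2 against 32.33 TPM in YPM (log2 ratio -0.89). The 3 genes were unequal in level but similar in their difference, so NOP56 exceeded NOP58 by a TPM ratio of 3.30 in YPD2 and 2.78 in YPM, and NOP1 exceeded NOP58 by 2.06 and 2.17. A list of partner genes outside the name pattern held 4 more box C/D and U3 proteins. Their median log2 ratio was -0.29, and 3 of them were below 0. The exception was SNU13 at 0.41, the core protein of the same particles that is also part of the spliceosome. RRP9, a U3-specific protein with no name in the table, stood at -0.30.

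The genomic positions of these genes were taken from R64. NOP56 (YLR197W) lies on the plus strand of chromosome XII from 546097 to 547611, NOP58 (YOR310C) on the minus strand of chromosome XV from 896825 to 898360, and NOP1 (YDL014W) on the plus strand of chromosome IV from 427364 to 428347. Open reading frames that the table describes as overlapping were listed for 2 of them. YOR309C, a dubious frame overlapping NOP58, was listed at 19.54 TPM in YPD2 against 7.24 TPM in YPM (log2 ratio -1.32). YLR198C, a dubious frame that overlaps NOP56 under another name of that gene, was listed at 42.42 TPM and 34.91 TPM. The use of strand in counting is not stated, so reads from such a pair cannot be told apart, and the values of NOP56 and NOP58 are uncertain to that extent.

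Among the small-subunit factors, 3 of 4 members were lower in YPM and the median log2 ratio was -0.50. NOP19, a processome protein needed for the early cuts of the precursor, was listed at 70.82 TPM in YPD2 against 35.61 TPM in YPM. Its log2 ratio of -0.97 fell just short of the limit. NOP14 and NOC4 encode proteins that form a complex in the maturation and export of the small subunit. NOP14 was listed at 33.00 TPM and 21.67 TPM (log2 ratio -0.58), and NOC4 at 27.14 TPM and 20.15 TPM (log2 ratio -0.41). The pair thus stayed near equal level, with a TPM ratio of NOP14 to NOC4 of 1.22 in YPD2 and 1.08 in YPM. UTP7, a protein of the same processome, did not share the difference and was listed at 39.64 TPM in YPD2 against 41.87 TPM in YPM. NOP19 (YGR251W) lies on chromosome VII (plus strand) from 995639 to 996229 and has the shortest coding sequence of the members, at 591 bases. NOP14 (YDL148C) lies on the minus strand of chromosome IV from 188154 to 190586, NOC4 (YPR144C) on the minus strand of chromosome XVI from 819765 to 821423, and UTP7 (YER082C) on the minus strand of chromosome V from 324272 to 325936.

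The large-subunit factors were split in the same manner, with 3 of 4 lower in YPM and a median log2 ratio of -0.56. NOP2, a methyltransferase of the 25S rRNA, was listed at 64.54 TPM in YPD2 against 30.79 TPM in YPM. Its log2 ratio of -1.04 lay just past the limit. It was at -0.96 when 5 TPM were added and at -0.91 with the median row set to no change. NOP7, whose protein joins Erb1 and Ytm1 in a complex, stood at 52.19 TPM in YPD2 against 32.87 TPM in YPM (log2 ratio -0.65). NOP53 acts late on the large subunit, where it brings in the exosome, and was listed at 44.43 TPM and 31.80 TPM (log2 ratio -0.47). NOP4, an RNA-binding protein of early large-subunit particles, was the highest of all members at 0.11, with 23.21 TPM in YPD2 against 25.06 TPM in YPM. The overlapping frame YPL044C was at 7.74 TPM and 5.39 TPM. NOP2 (YNL061W) lies on the plus strand of chromosome XIV from 510540 to 512396. NOP7 (YGR103W) lies on chromosome VII (plus strand) from 695417 to 697234, NOP53 (YPL146C) on the minus strand of chromosome XVI from 276162 to 277529, and NOP4 (YPL043W) on the plus strand of chromosome XVI from 469939 to 471996.

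RRP40 (YOL142W, plus strand of chromosome XV from 55558 to 56280) encodes a subunit that caps the core of the RNA exosome. It was listed at 72.12 TPM in YPD2 against 74.46 TPM in YPM (log2 ratio 0.05). In YPM it was the most abundant member, whereas in YPD2 NOP56 was. The 6 other exosome genes of the name pattern, which are known only by their RefSeq symbols here, had a median log2 ratio of -0.18 and ran from RRP6, the nuclear exonuclease, at -0.38 to RRP45, a core ring subunit, at 0.43.

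**Figure D2:**
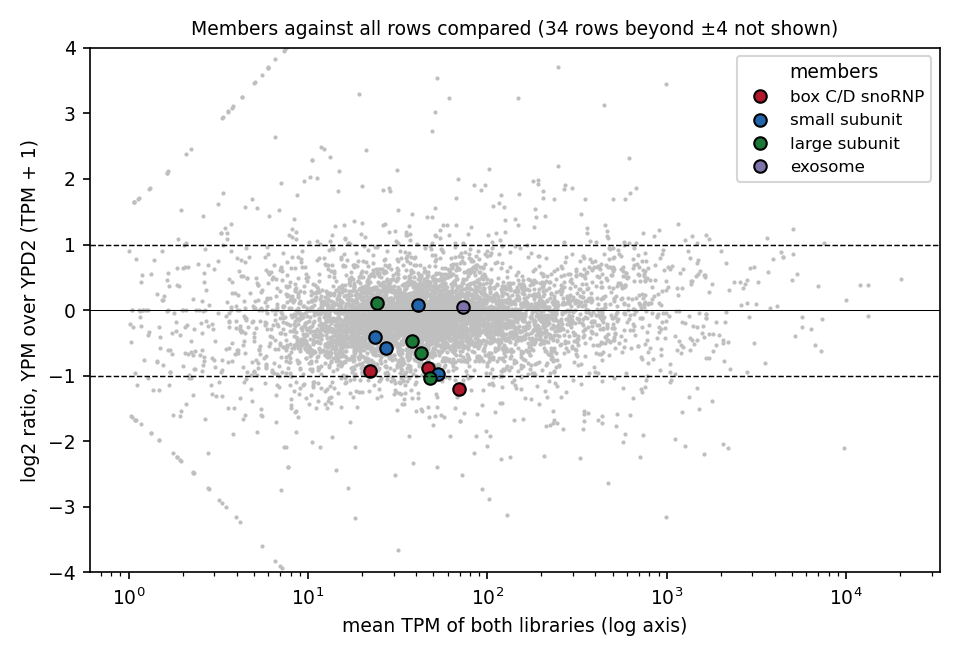
Log2 ratio of YPM to YPD2 against mean TPM for the 6350 rows compared (grey points) and the 12 members (coloured by role), with dashed lines at a log2 ratio of 1 in either direction; 34 rows beyond 4 are not drawn. The members sit in the middle of the abundance range, and 9 of them lie below 0, with NOP56 and NOP2 under the lower dashed line.

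The coding sequences were checked for sequence that occurs elsewhere. None of the 12 had a 50-base word found at another place in R64, and none overlapped another gene annotated there. All 12 are uninterrupted by introns. Across the members, Pearson's r of the log2 ratio was -0.21 with log2 mean TPM and 0.09 with log2 coding length, which are descriptions over 12 genes of the same 2 libraries.

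Stretches from the promoters of the members are shown because most of them hold one of 2 motifs known from the promoters of ribosome synthesis genes in yeast. PAC, to which the repressors Dot6 and Tod6 bind, was searched as GCGATGAG, and RRPE, to which the repressor Stb3 binds, as GAAAAATTT. Both strands of the 250 bases before the start codon were searched. This gave 14 matches in 10 members, and the stretches shown are a selection of them. The RRPE matches of NOC4, NOP7 and NOP14 and the opposite-strand RRPE match of NOP1 are not printed. The capitals mark the match, the 30 bases are given in the direction of the gene, and coordinates are those of R64.
NOP56 RRPE, chrXII:545975-546004, plus strand: gatgggaaatGAAAAATTTtgtgcaattgc
NOP58 RRPE, chrXV:898475-898504, minus strand: gaaatttggaAAATTTTTCaacctcatcga
NOP1 RRPE, chrIV:427127-427156, plus strand: tctttttcttGAAAAATTTttcaaattgga
NOP4 RRPE, chrXVI:469789-469818, plus strand: aattttcactGAAAAATTTcaagagtctat
NOP2 RRPE, chrXIV:510338-510367, plus strand: ttttttgatgAAATTTTTCagattttacaa
NOP2 PAC, chrXIV:510398-510427, plus strand: aaaattttcatCTCATCGCagaataagttt
NOP19 PAC, chrVII:995501-995530, plus strand: ggcaatttctaGCGATGAGattggaaaaac
NOP7 PAC, chrVII:695275-695304, plus strand: gaaaattttttGCGATGAGatgagatgaga
NOP14 PAC, chrIV:190726-190755, minus strand: gtaatattgggGCGATGAGccgtacagaac
UTP7 PAC, chrV:326045-326074, minus strand: aaattttctaaGCGATGAGttcgtgaaaaa

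PAC was found before 5 of the 12 members (41.7%) and RRPE before 8 (66.7%), where 3.84% and 5.91% of the 5985 windows of coding genes held them. NOP2, NOP7 and NOP14 had both, and only NOP53 and RRP40 had neither. The matches began between 106 and 227 bases before the start codon. In NOP1 the RRPE match was read on both strands, since the letters run into their own reverse complement there. With the shorter forms GATGAG, which lies within PAC, and AAAAATTT, which lies within RRPE, 11 and 10 members had a match, against 17.0% and 13.4% of all windows. Both motifs occurred before members that differed between the libraries and before members that did not. UTP7 at a log2 ratio of 0.08 had PAC and NOP4 at 0.11 had RRPE, while NOP56 had RRPE without PAC. A match describes letters and is not a measured binding site.

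The promoter windows can also belong to a gene on the other side. Divergent neighbours with a value lay within 500 bases of 5 members, and none of these neighbours passed the limit. GCD10, a tRNA methyltransferase gene beside NOP2, had a log2 ratio of -0.27, and TSC13, a fatty acid elongation gene beside NOP1, had -0.06. GTF1, a mitochondrial translation gene beside NOP7, stood at -0.46 and RPN5, a proteasome gene beside NOP14, at -0.09. Each of these was closer to 0 than its partner. RIB4, a riboflavin synthesis gene beside RRP40, was the reverse case, with -0.83 against 0.05.

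**Figure D3:**
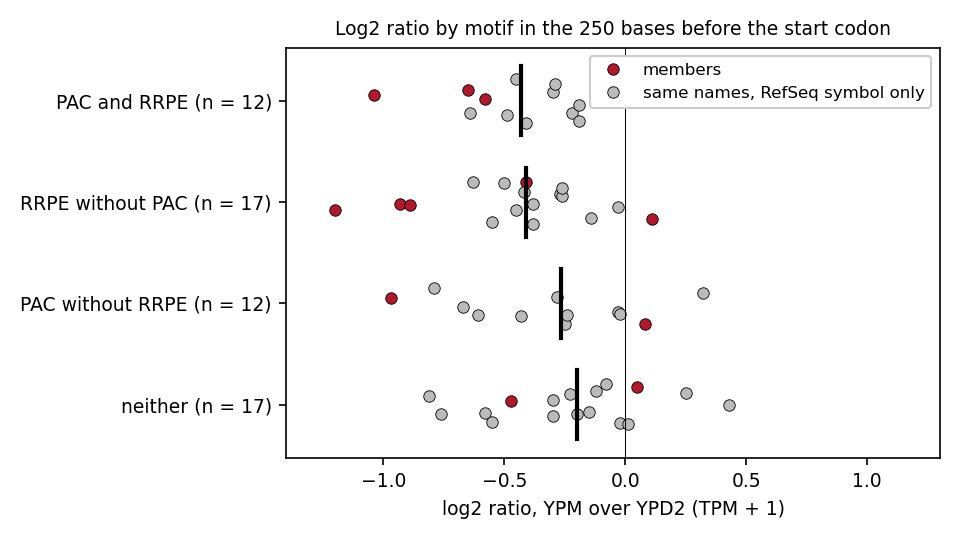
Log2 ratio of the 12 members (red) and the 46 further genes of the name pattern (grey), sorted by strict motif matches in the 250 bases before the start codon, with the median of each class as a black bar. The bars lie at -0.43 with both motifs, -0.41 with RRPE alone, -0.26 with PAC alone and -0.20 with neither, and the classes overlap widely.

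The 46 genes with such a name in RefSeq only were lower in YPM as well, but by less. Of these, 42 were below 0 (91.3%, against 63.1% of all rows compared) and 36 were below the median of all rows, with a median log2 ratio of -0.29, and none passed the limit in either direction. NOC3, a large-subunit factor whose protein forms a complex with Noc2, was lowest at -0.81, at 25.71 TPM in YPD2 against 14.26 TPM in YPM. NOP8 (-0.79) and RRP14 (-0.76) followed. At the other end, NOP12 stood at 0.32 and RRP45 at 0.43. The 6 genes of this set in the UtpA complex, which binds the start of the precursor, were all below 0, in the narrow range from -0.55 to -0.25. The 4 genes of this set in UtpB had a median of -0.22. The UtpB genes outside the name pattern, DIP2 (-1.05) and PWP2 (-0.78), were lower. RRP7 and UTP22 of UtpC stood at -0.26 and -0.08, and 4 further UtpC genes outside the pattern had a median of -0.22. NOP10, a small protein of the box H/ACA particles that convert uridine to pseudouridine, was by far the most abundant at 618.72 TPM in YPD2 against 414.08 TPM in YPM. The difference in median between these genes and the 12 members has no test, and the members were also the more abundant of both sets, with a median in YPD2 of 48.3 TPM against 24.1 TPM. For all 58 genes together the median was -0.30, with 51 below 0 (87.9%) and 2 past the limit (3.45%). That share lies between the 5.15% of all rows and the 2.86% of rows within the members' range of mean TPM.

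Genes of the same machinery outside the name pattern were taken from a list of partners. It held 92 assembly factors, of which 83 were below 0 (90.2%, against 63.1% of all rows compared) with a median log2 ratio of -0.35. Past the limit was 1 gene of them (1.09%), which is under the 5.15% of all rows. It was DIP2, a UtpB protein, at 24.84 TPM in YPD2 against 11.44 TPM in YPM. Its companion PWP2 stood at -0.78. The GTPase NOG2 (-0.98), which acts on the large subunit, and the kinase RIO1 (-0.91), which acts on the small subunit, were next to the limit. The list for RNA polymerase I with its initiation factor RRN3 had a median of -0.27 over 8 genes, from RPA190, the largest subunit, at -0.52 to RRN3 at 0.55.

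The cytosolic ribosomal proteins went the opposite way. Of their 132 genes, 127 reached a mean of 1 TPM, with a median log2 ratio of 0.66. All of these were above 0, where 2334 of all 6350 rows compared were. Past the limit, 22 of them (17.3%) were higher, against 3.28% of all rows compared. The lowest of them, RPS24B, stood at 0.03. No member other than RRP40, UTP7 and NOP4 reached that value, and of all 150 assembly factor genes 137 were below it. Most rows of any kind lay that low, since 63.1% of all rows compared were below 0. Many ribosomal protein genes are pairs of near-identical copies, among which reads can be divided either way, so single values are uncertain, RPL20B above all, which was listed at 0 in YPD2. Together these genes held 6.97% of the summed TPM in YPD2 and 11.6% in YPM, and under a fixed total a larger share leaves less for all other rows. With both libraries rescaled without these genes, the members' median was -0.55, the median of all rows was -0.06, and NOP56 was the 1 member past the limit. The regulators of ribosome synthesis genes lay on both sides of 0. The median of 13 genes was -0.22, 9 were below 0 (69.2%, against 63.1% of all rows compared) and none passed the limit. DOT6 stood at 0.09, TOD6 at 0.10 and STB3 at -0.34. SFP1 (0.16) and CRF1 (0.37) were above 0, and HMO1 (-0.54), SCH9 (-0.49), IFH1 (-0.44) and FHL1 (-0.25) were below. TOR1, a growth-controlling kinase, was lowest at -0.77.

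**Figure D4:**
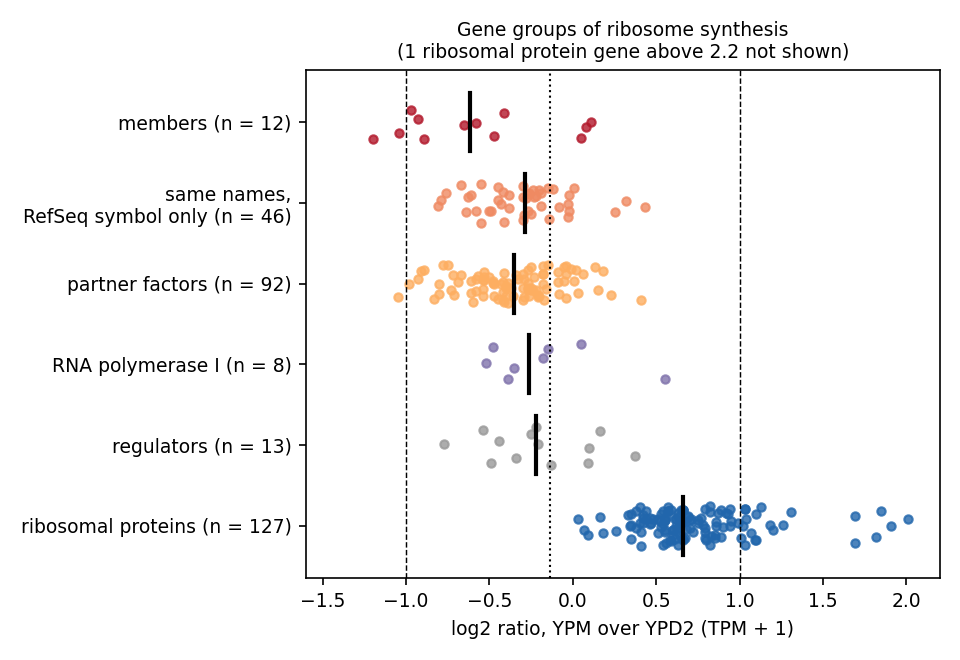
Log2 ratio of YPM to YPD2 for single genes (points) in 6 groups of ribosome synthesis, with the group median as a black bar, the median of all rows as a dotted line at -0.13 and the limit as dashed lines; 1 ribosomal protein gene is off the axis. The 3 groups of assembly factors have medians of -0.62, -0.29 and -0.35, and the ribosomal proteins lie apart at 0.66.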

How the data were processed

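The 2 polyA-selected RNA-seq libraries, 1 per medium, were compared. The authors estimated expression with RSEM and deposited TPM, and their processing notes also name HISAT2 and StringTie. Versions, genome build, annotation and strand use are not given in the sources used here. The column MYPD was taken as YPM, described as modified YPD in the labels. Members were chosen by the gene name in the table, and the members and lists were chosen with earlier results of these data known. Of the 7126 rows, 6044 matched a RefSeq locus tag (R64), which gave symbols, positions and windows. These describe R64 and may differ from the authors' reference.

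The log2 ratio used a pseudocount of 1 TPM, a minimum mean of 1 TPM and a limit of 1. No count test was possible on TPM. Genes named are all members, the members past or next to the limit, the extremes of each role group and the extremes of each comparison list. Neighbours, overlapping frames, SNU13, PWP2, NOG2, RIO1, RRN3, RPL20B, NOP8, RRP14, NOP12, NOP10, RRP9 and UtpC genes were named after their values were seen. The same holds for the regulators other than TOR1 and CRF1. Calls and motif search were tested on simulated data with planted changes well past the limit and exact copies of PAC. This checks the code only and says nothing about differences near the limit. Alternatives were other pseudocounts (0.1 or 5 TPM, or none), other minimum values, rescalings to the median row or without the 20 most abundant rows or the ribosomal protein rows, a 1.5-fold limit and membership by RefSeq symbol. The work used Python 3.11.15 with numpy 2.4.6, pandas 2.3.3 and, for plots, matplotlib 3.10.9.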

Additional observations from a re-analysis of the deposited data

How the results depend on the processing

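The sign of the log2 ratio of each of the 12 members was the same in all 9 settings of pseudocount, minimum and scale, the main one included. This was largely fixed in advance. A pseudocount cannot change a sign, a minimum leaves the values as they are, and the rescalings shift all members alike, by 0.14 at most. The count of members past the limit was 2 as reported and 1 with 5 TPM added (3.20% of all rows were lower there), 1 with the median row set to no change (4.02%), 1 rescaled without the ribosomal protein rows (4.50%) and 1 among the 9 members without an overlapping open reading frame (5.15%), the last 2 alternatives being chosen after seeing the data. At a limit of 1.5-fold it was 6, all lower, where 14.9% of all rows were lower. The members' median was -0.63 with 0.1 TPM, -0.55 with 5 TPM, -0.64 without a pseudocount, -0.59 rescaled without the 20 most abundant rows, -0.55 without the ribosomal protein rows, -0.58 without overlapping frames, -0.49 with the median row set to no change and -0.30 with the 58 genes by RefSeq symbol. Setting the median row to no change gave role group medians of -0.80 (box C/D), -0.37 (small subunit) and -0.43 (large subunit), and -0.23 for the 92 partners. The exosome value in this setting was 0.18, which is that of RRP40 alone and not of the exosome genes as a group. The loose form of PAC matched 11 members instead of 5. No paired analysis was possible because each medium has a single library. Depth is unknown, so differences near the limit cannot be told from sampling error.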

Other observations

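The table also lists the spacers of the ribosomal RNA precursor on which these factors act. They are residual rows in polyA-selected libraries, and each pair of copies carries the same value. ETS1, which holds the U3 binding site, was listed at 212.47 TPM in YPD2 against 131.44 TPM in YPM per copy (log2 ratio -0.69). ITS2 was listed at 156.43 TPM and 77.69 TPM, and ITS1 at 45.00 TPM and 33.77 TPM. The other rows of the precursor were low and went the other way, with the spacer ETS2 listed at 0 in YPD2 and at 3.27 TPM in YPM, and RDN37, the whole precursor, at 4.4 TPM and 6.06 TPM. The spacer and rRNA rows are parts of RDN37, and reads can be divided among such rows either way. The RDN37 value is therefore no separate measure of the precursor. The mature 18S and 25S rows hardly differed, with log2 ratios of -0.05 and -0.12, and the 5.8S row stood at 0.82. How far these rows move with the members was not tested.

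The motifs were also present before coding genes outside the lists of assembly factors and ribosomal proteins. These still include RNA polymerase I subunits, regulators and any ribosome synthesis gene that is on none of the lists. The 43 such genes with both PAC and RRPE had a median log2 ratio of -0.36, and 37 of them (86.0%) were below 0. The 112 genes with PAC alone had a median of -0.23 with 83 below 0 (74.1%), the 222 with RRPE alone -0.13 with 150 below 0 (67.6%), and the 5101 with neither -0.13 with 3258 below 0 (63.9%). These are descriptions of 2 libraries, and the classes were looked at after the values of the members were known.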
